A study of Arabidopsis thaliana with 12 samples.

Results

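Transcript levels of 43 nuclear genes that encode the subunits of photosystem I (PSI), photosystem II (PSII), their light-harvesting antennae and the antenna protein PSBS were examined in Arabidopsis seedlings treated with abscisic acid (ABA). The genes were taken by locus from a list of 6 LHCA, 14 LHCB, 1 PSBS, 12 PSI and 10 PSII genes, out of 33602 genes in the count table, and the rule used their loci and not measured values. All 43 passed the filter on low counts, which 20617 genes passed. The light-harvesting chlorophyll-binding proteins capture light and pass its energy to the photosystem cores, LHCB proteins mainly to photosystem II and LHCA proteins to photosystem I. The cores are built from proteins of both the plastid and the nuclear genome, and the nuclear members are made in the cytosol and imported. ABA, the hormone of drought and seed dormancy, acts through SnRK2 protein kinases and is known to lower the transcripts of many photosynthesis genes in leaves.

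Seedlings of 4 groups were sequenced, with 3 libraries each: m9 with ABA, m9 without ABA (m9 control), wild type with ABA and wild type without ABA (WT control). All were 12-day-old whole seedlings in the Col-0 accession. The labels give the mutant only as m9, and it was taken to be OK100-oct, the mutant line that the study sequenced, made by genome editing, so the mutant values rest on 1 line. OK100-oct carries null alleles of RAF11, RAF10, RAF9, RAF8, RAF7, RAF5, RAF4 and RAF3, which encode Raf-like protein kinases. In the study the kinase domains of most of these phosphorylated a SnRK2 in vitro, while those of RAF8 and RAF9 showed no activity there. The study also describes OK100-nonu, which has a RAF6 mutation besides these, and the labels do not say which line m9 is. The dose and duration of ABA for these libraries are not given in the sources used here. The study states in general that it took seedlings from different plates, but not how plates or plants relate to these replicates. The p-values therefore measure the spread between these libraries, which may be technical. Between replicates of a group, the squared deviation per gene over that of count sampling alone was 4.4 to 46.9. It was highest for WT control replicates 2 and 3.

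Total counts lay between 16632701 and 26661613 per library, and the 3 WT control libraries were the shallowest, with at most 19945936. The ABA markers RD29B and RAB18 were higher with ABA in both genotypes, by log2 fold changes of 6.18 to 7.51 in m9 and 6.97 to 9.68 in the wild type. With ABA both were lower in m9 than in the wild type, by -3.50 and -3.16, beside 20.7% of all tested genes lower. Levels are given as CPM, the counts of a gene per 1e6 counts of its library, scaled by TMM factors, and differences as log2 fold changes with a standard error from an edgeR quasi-likelihood model, called at a Benjamini-Hochberg adjusted p under 0.05 over all tested genes. The TMM factors were 0.957 to 0.985 in m9 ABA and 1.07 to 1.11 in m9 control, and 0.864 to 0.896 in WT ABA and 1.04 to 1.12 in WT control, so the ABA libraries and the controls are scaled differently. Scaling by library totals alone moved the median log2 fold change of all genes by -0.30 in the wild type and by -0.17 in m9, and the members whose direction turned with it are counted below. In whole seedlings, fewer green cells and less RNA per cell cannot be told apart.

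The LHCB1 genes, which encode the main protein of the trimeric antenna of photosystem II, are shown first because in the wild type 2 of their 5 copies rose and 2 fell with ABA. LHCB1.2 (AT1G29910, chr1:10472280-10473502, minus strand), LHCB1.1 (AT1G29920, chr1:10474656-10475969, minus strand) and LHCB1.3 (AT1G29930, chr1:10477885-10479114, plus strand) are neighbours, and so are LHCB1.5 (AT2G34420, chr2:14522524-14523568, minus strand) and LHCB1.4 (AT2G34430, chr2:14524607-14525918, plus strand), all annotated with a single exon in the TAIR10.1 assembly. The 250 bases before the annotated start of each copy, read from the RefSeq TAIR10.1 assembly and written 5′ to 3′ on the strand of the gene, are given with 3 motifs in capitals where they occur on either strand: ACGTG (reverse CACGT), the core of ABA response elements and G-boxes, GATAAG (reverse CTTATC), the I-box, and CCAAT (reverse ATTGG).
LHCB1.1: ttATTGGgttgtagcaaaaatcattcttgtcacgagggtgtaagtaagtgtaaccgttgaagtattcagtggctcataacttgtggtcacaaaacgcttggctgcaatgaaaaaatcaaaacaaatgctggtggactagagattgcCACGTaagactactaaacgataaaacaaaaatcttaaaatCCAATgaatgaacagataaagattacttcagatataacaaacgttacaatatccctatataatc
LHCB1.2: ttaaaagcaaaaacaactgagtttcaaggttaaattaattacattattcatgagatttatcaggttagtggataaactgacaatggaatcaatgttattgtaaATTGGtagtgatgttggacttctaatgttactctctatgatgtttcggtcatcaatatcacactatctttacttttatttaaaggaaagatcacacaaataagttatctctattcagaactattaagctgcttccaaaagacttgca
LHCB1.3: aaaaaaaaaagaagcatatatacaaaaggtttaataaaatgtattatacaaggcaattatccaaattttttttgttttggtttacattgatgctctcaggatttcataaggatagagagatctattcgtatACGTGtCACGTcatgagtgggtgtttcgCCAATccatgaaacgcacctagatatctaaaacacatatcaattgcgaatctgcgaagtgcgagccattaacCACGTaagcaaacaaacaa
LHCB1.4: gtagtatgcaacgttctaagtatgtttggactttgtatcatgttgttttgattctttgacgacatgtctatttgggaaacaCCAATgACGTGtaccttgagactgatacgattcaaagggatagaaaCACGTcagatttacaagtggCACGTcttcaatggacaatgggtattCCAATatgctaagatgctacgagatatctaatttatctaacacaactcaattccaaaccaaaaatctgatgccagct
LHCB1.5: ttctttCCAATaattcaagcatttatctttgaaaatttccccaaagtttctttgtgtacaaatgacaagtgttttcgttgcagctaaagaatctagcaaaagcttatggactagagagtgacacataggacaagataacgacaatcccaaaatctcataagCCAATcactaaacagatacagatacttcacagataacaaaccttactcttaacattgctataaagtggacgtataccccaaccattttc
The windows of LHCB1.3 and LHCB1.4 each held 3 matches to ACGTG and that of LHCB1.1 held 1, while those of LHCB1.2 and LHCB1.5 held 0. GATAAG was in none of the 5 windows, and CCAAT was in each of them. Over all members, 18 of 43 windows held ACGTG, against 23.1% of the windows of 26711 protein-coding genes, and 9 of 43 held the full G-box CACGTG, against 6.58%. Each window is counted once in these shares, for a match on either strand, and windows whose ACGTG lies inside a G-box are included. CCAAT was in 13 of 14 LHCB and 5 of 6 LHCA windows, in 7 of 12 PSI windows and in 2 of 10 PSII windows, against 46.1% of all genes. GATAAG was in 9 of 43 windows, against 12.2% of all genes. These matches are a description of the letters in the window.

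Among the LHCB1 copies in the wild type, LHCB1.4 rose with ABA and LHCB1.2 and LHCB1.1 fell. LHCB1.4 had 4532, 4299.9 and 3842 CPM in the WT ABA libraries, against 1385, 1568 and 1720.1 CPM in the WT control libraries, a log2 fold change of 1.44 ± 0.12 (edgeR adjusted p = 1.9e-07). LHCB1.2 had 1065, 1113 and 894 CPM in the WT ABA libraries, against 2242, 3218 and 1895 CPM in the WT control libraries (-1.26 ± 0.18, edgeR adjusted p = 3.2e-05). For both copies every ABA library lay outside the range of the controls, on opposite sides. LHCB1.1 had 2004, 1933 and 1639.6 CPM in WT ABA and 2727, 3532 and 2515 CPM in WT control (-0.65 ± 0.14, edgeR adjusted p = 0.00085). LHCB1.5 had 8226, 7963 and 6602 CPM in WT ABA and 4895, 5839 and 5391 CPM in WT control (0.50 ± 0.13, edgeR adjusted p = 0.0039), with the groups apart for both. LHCB1.3, per kb of exon the most abundant of all members, had 20512, 19431 and 18314 CPM in WT ABA and 16662, 18231 and 19127 CPM in WT control, groups that overlapped (0.11 ± 0.13, edgeR adjusted p = 0.46).

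In m9, LHCB1.4 and LHCB1.5 also rose, whereas LHCB1.1 and LHCB1.2 were not called. LHCB1.4 had 2530.0, 2359.6 and 2514 CPM in the m9 ABA libraries, against 1249.5, 1116 and 1284 CPM in the m9 control libraries (1.02 ± 0.12, edgeR adjusted p = 1.5e-05). LHCB1.5 had 6342, 6294 and 7090.2 CPM in m9 ABA, against 3886, 3890.2 and 4505 CPM in m9 control (0.68 ± 0.13, edgeR adjusted p = 0.00082). Neither copy overlapped between its groups. LHCB1.2 had 1999.7, 1886 and 2088 CPM in m9 ABA and 2386, 1861 and 2451 CPM in m9 control, which overlapped (-0.17 ± 0.18, edgeR adjusted p = 0.45). LHCB1.1 had 3529, 3266 and 3561 CPM in m9 ABA and 2939, 2633 and 3009 CPM in m9 control (0.27 ± 0.14, edgeR adjusted p = 0.11), the m9 ABA libraries being the higher ones without a call. LHCB1.3 had 22155, 19796 and 20789 CPM in m9 ABA and 16728, 16594 and 17946 CPM in m9 control (0.29 ± 0.13, edgeR adjusted p = 0.070). The interaction, the ABA response of m9 minus that of the wild type, was called above 0 for LHCB1.2 (1.09 ± 0.25, edgeR adjusted p = 0.0088) and LHCB1.1 (0.92 ± 0.19, edgeR adjusted p = 0.0054), and was -0.42 ± 0.16 for LHCB1.4 (edgeR adjusted p = 0.093). With the counts of LHCB1.1, LHCB1.2 and LHCB1.3 summed the interaction was 0.32 and was not called (edgeR adjusted p = 0.26).

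Ratios between copies within a library do not depend on how libraries were scaled. The count of LHCB1.4 over that of LHCB1.2 was 1.204 to 1.27 in m9 ABA and 0.524 to 0.600 in m9 control, and 3.86 to 4.296 in WT ABA and 0.487 to 0.908 in WT control. LHCB1.4 made up 6.92 to 7.02% of all LHCB1 counts in m9 ABA and 4.28 to 4.596% in m9 control, and 12.3 to 12.5% in WT ABA and 4.84 to 5.61% in WT control. LHCB1.3, the copy with the most counts, made up 57.7 to 60.6% in m9 ABA and 61.5 to 63.6% in m9 control. In WT ABA it made up 55.9 to 58.5% and in WT control 56.3 to 62.4%, in every library more than the other 4 copies together. With 3 libraries a group no exact permutation test of these ratios could pass 0.05, and none is given.

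The copies are alike, and how the counting treated reads that fit several genes is not given in the sources used here. The coding sequences of LHCB1.1, LHCB1.2 and LHCB1.3 were 95.6 to 96.4% identical, and that of LHCB1.4 was 86.9 to 88.3% identical to these and 91.8% identical to that of LHCB1.5. Of all windows of 50 bases in their exons, 10.6 to 20.5% were also found in another gene, and of windows of 150 bases, the read length, none were. Summed, LHCB1.1, LHCB1.2 and LHCB1.3 had a log2 fold change of -0.07 in the wild type (edgeR adjusted p = 0.66) and LHCB1.4 and LHCB1.5 one of 0.77 (edgeR adjusted p = 0.00014). All exon bases of LHCB1.5 lie opposite other annotated genes, of which AT2G34410 was at 16.5 to 19.2 CPM and AT2G08665 was not in the count table. Whether strand was used in counting is not given, so reads of LHCB1.5 and of these genes cannot be told apart. The same limit holds for other members with exon bases opposite another gene, among them PSAG (61.4%), LHCB2.3 (40.6%), PSAE-1 (34.1%) and PSAH-2 (24.8%). The gene opposite LHCB2.3 was at 27.2 to 39.6 CPM and that opposite PSAH-2 at 5.80 to 11.5 CPM.

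**Figure D1:**
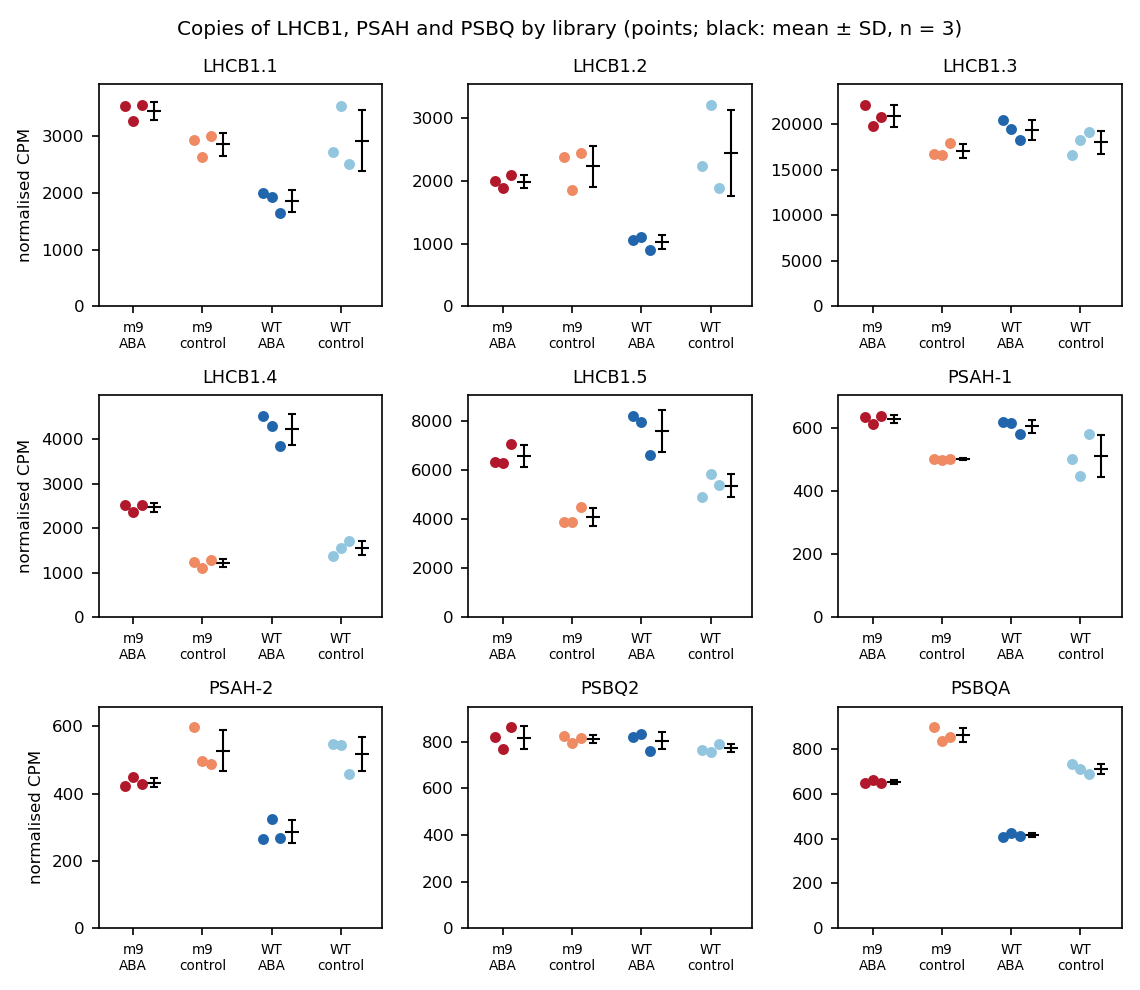
Scaled CPM of the 5 LHCB1 copies and of the PSAH and PSBQ copies in each of the 12 libraries, with the mean and SD (n = 3) in black, for m9 ABA, m9 control, WT ABA and WT control. LHCB1.4 stands at 3842 to 4532 CPM in WT ABA, above every other library, while LHCB1.2 is at 894 to 1113 CPM there, below every other library.

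Across all members in the wild type, 17 of 43 were lower with ABA, 7 were higher and 19 were not called, beside 36.4% of all tested genes called lower and 32.2% called higher. The members lowered were thus close to the background in number and those raised were fewer. The median log2 fold change of the members was -0.08, against -0.06 for all tested genes. No member changed at least 3-fold, a change reached by 7.16% of all genes in the lower and 7.18% in the higher direction. At least 2-fold, 3 members changed (LHCB1.2 and LHCB6 lower, LHCB1.4 higher), beside 3344 of 20617 tested genes lower and 2643 higher. With library totals in place of TMM factors 31 members were lower and 1, LHCB1.4, was higher, where 51.0% and 20.6% of all genes were called, and 10 estimates turned below 0. These were the called ones of LHCA5, PSAE-2 and PSAH-1, and those of LHCB1.3, LHCB2.1, PSAE-1, PSAL, PSBO2, PSBQ2 and PSBW. Without WT ABA replicate 1, 4 members were higher, a refit for which the share of all genes was not counted.

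In m9, 4 of 43 members were lower with ABA, 10 were higher and 29 were not called, beside 26.1% of all tested genes called lower and 25.9% called higher. The members called lower were LHCA6, PSBS, PSBQA and PSBTN, all of which were also lower in the wild type. The 10 called higher were the 7 that were higher in the wild type (LHCA5, LHCB1.4, LHCB1.5, LHCB2.3, PSAE-2, PSAH-1 and PSBR) with LHCB2.1, PSAL and PSBW. The median was 0.08, against -0.01 for all tested genes, and no member changed at least 3-fold, against 2.43% of all genes lower and 3.56% higher. With library totals 11 members were lower and 4 higher (LHCB1.4, LHCB1.5, LHCB2.3 and PSAE-2), where 37.5% and 17.7% of all genes were called. Scaled so, 10 estimates turned below 0 (LHCA2, LHCA3, LHCB2.2, LHCB4.1, LHCB4.2, PSAG, PSAK, PSBO1, PSBP1 and PSBQ2), none called under either scaling. Without m9 ABA replicate 3, 6 were higher, and the share of all genes was not counted for that refit. The other 13 members lowered in the wild type were not called in m9, which by itself does not show that the responses differed.

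**Figure D2:**
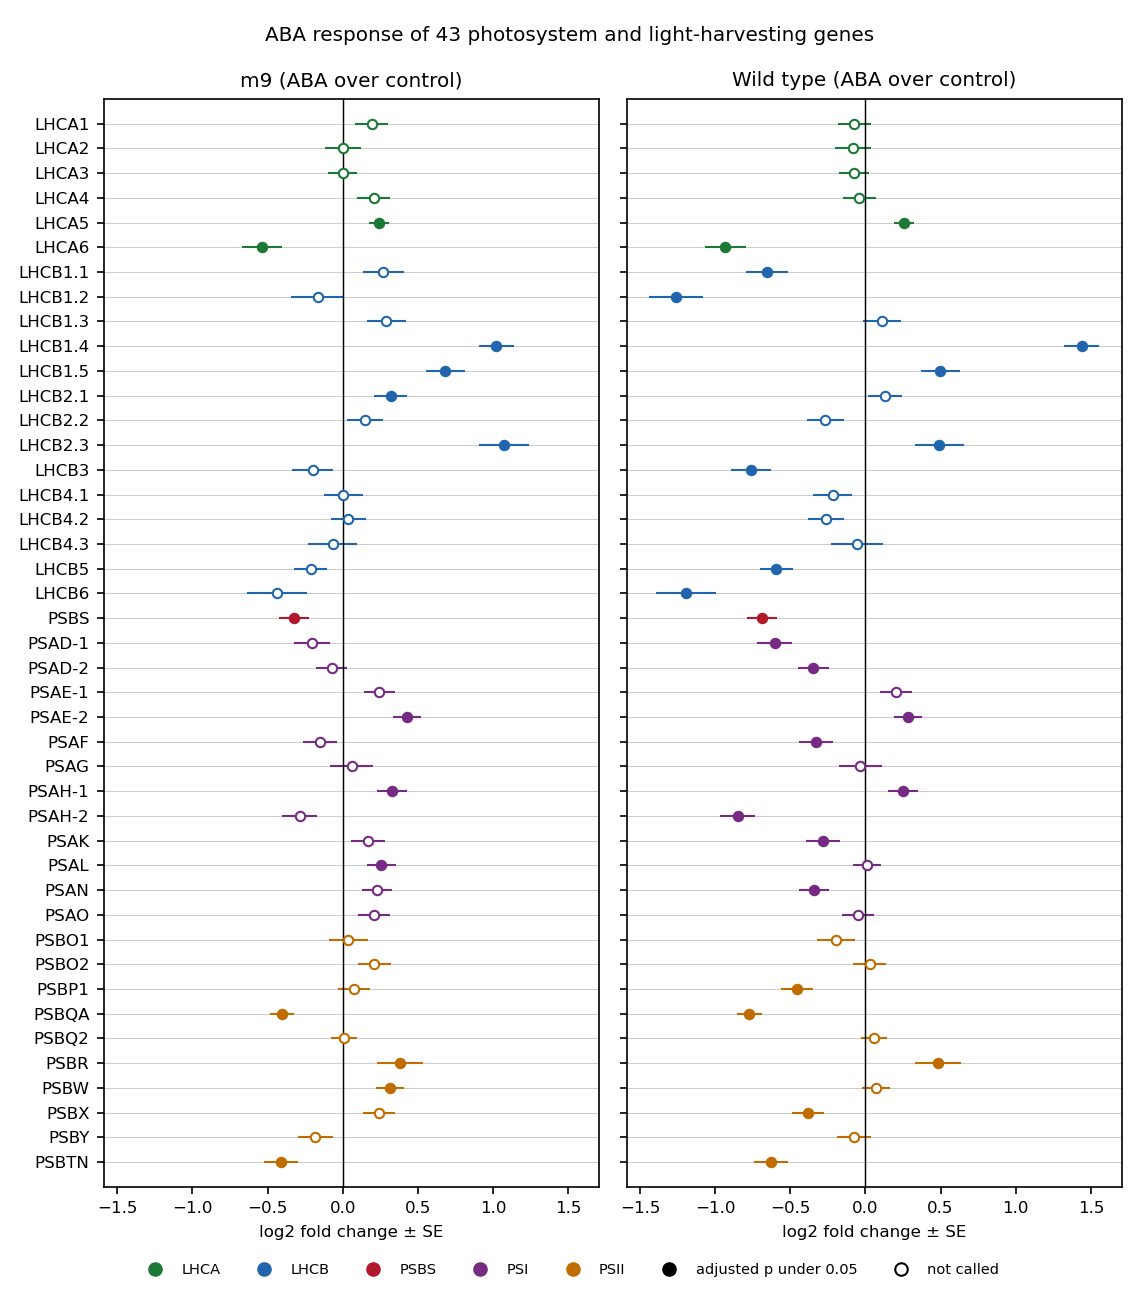
Log2 fold change with ABA (points, with the standard error as bars) of each of the 43 members in m9 (left) and the wild type (right), coloured by complex and filled where the edgeR adjusted p is under 0.05. Most points lie within 1 of 0, the wild-type panel reaches -1.26 for LHCB1.2 and 1.44 for LHCB1.4, and the 17 filled points left of 0 in the wild type compare with 4 in m9. With library totals 10 points in each panel move from right to left of 0, among them LHCA5, PSAE-2 and PSAH-1 in the wild type.

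By complex, the number of members lower and higher with ABA in m9 was 1 and 1 of 6 for LHCA, 0 and 4 of 14 for LHCB, 0 and 3 of 12 for PSI and 2 and 2 of 10 for PSII, and PSBS was lower. In the wild type it was 1 and 1 for LHCA, 5 and 3 for LHCB, 6 and 2 for PSI and 4 and 1 for PSII, and PSBS was lower. The median log2 fold changes in m9 were 0.10 for LHCA, 0.09 for LHCB, 0.19 for PSI and 0.06 for PSII, and in the wild type -0.08 for LHCA, -0.24 for LHCB, -0.17 for PSI and -0.14 for PSII. The spread within LHCB, from -1.26 to 1.44 in the wild type, was wider than these differences between complexes.

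As a share of all counts, the 43 genes took 7.79 to 8.23% in the m9 ABA libraries and 7.57 to 8.12% in m9 control, which overlapped, and 6.16 to 7.09% in WT ABA and 7.98 to 8.76% in WT control, which did not. LHCB took 4.25 to 4.47% in m9 ABA and 3.84 to 4.31% in m9 control, and 3.31 to 3.85% in WT ABA and 4.12 to 4.74% in WT control. LHCA took 1.02 to 1.12% in m9 ABA and 1.08 to 1.17% in m9 control, and 0.821 to 0.937% in WT ABA and 1.09 to 1.22% in WT control. PSI took 0.993 to 1.05% in m9 ABA and 1.02 to 1.16% in m9 control, and 0.804 to 0.965% in WT ABA and 1.14 to 1.24% in WT control. For PSII the groups did not overlap in either genotype, with 1.43 to 1.53% in m9 ABA and 1.54 to 1.591% in m9 control, and 1.19 to 1.296% in WT ABA and 1.56 to 1.591% in WT control. These shares follow library totals, so they include the shift in scale given above.

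**Figure D3:**
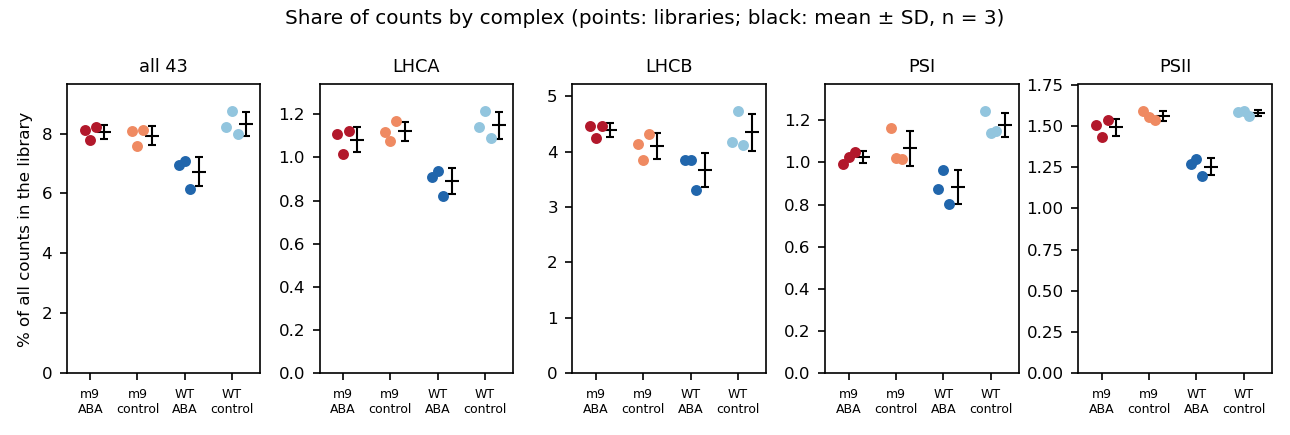
Percent of all counts of a library that fell on the 43 members and on the LHCA, LHCB, PSI and PSII genes, for each of 12 libraries, with the mean and SD (n = 3) in black. In the wild type the ABA libraries lie below the controls in every panel (6.16 to 7.09% and 7.98 to 8.76% for all 43), while in m9 the groups overlap in all panels but PSII.

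LHCA5 and LHCA6, which link photosystem I to the NDH complex and were the least abundant LHCA genes, were the only LHCA members called, in opposite directions. LHCA6 had 24.7, 30.0 and 25.2 CPM in m9 ABA and 38.4, 35.0 and 42.6 CPM in m9 control. LHCA6 had 16.1, 18.4 and 17.5 CPM in WT ABA and 34.8, 38.8 and 25.9 CPM in WT control. All ABA libraries lay below the controls of their genotype, with log2 fold changes of -0.54 ± 0.13 in m9 (edgeR adjusted p = 0.0046) and -0.93 ± 0.14 in the wild type (edgeR adjusted p = 4.7e-05). LHCA5 had 83.2, 81.6 and 86.5 CPM in m9 ABA and 69.6, 74.1 and 69.3 CPM in m9 control. LHCA5 had 90.5, 92.3 and 89.2 CPM in WT ABA and 75.0, 78.0 and 74.9 CPM in WT control. It rose by 0.24 ± 0.07 in m9 (edgeR adjusted p = 0.0092) and 0.26 ± 0.07 in the wild type (edgeR adjusted p = 0.0041), where library totals turned the sign. LHCA1 to LHCA4, the main PSI antenna proteins, changed by -0.08 to -0.04 in the wild type and 0.00 to 0.21 in m9, none called. LHCA4, the most abundant of them per kb, had 3784, 3228 and 3736 CPM in m9 ABA and 3036, 3022 and 3262 CPM in m9 control. LHCA4 had 3266, 3285 and 2863 CPM in WT ABA and 3162, 3305 and 3216 CPM in WT control, groups that overlapped in both genotypes.

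LHCB6, LHCB3 and LHCB5 were lower with ABA in the wild type and not called in m9. LHCB6, a minor antenna protein between the trimers and the PSII core, had 753, 809 and 850.4 CPM in m9 ABA and 1095, 933 and 1245 CPM in m9 control (-0.44 ± 0.20, edgeR adjusted p = 0.080). In the wild type it had 441, 489.8 and 434 CPM with ABA and 939, 1466 and 718 CPM in control (-1.19 ± 0.20, edgeR adjusted p = 0.00015), where WT control replicate 2 was far above the other controls but no library of either group overlapped. LHCB3, a component of the trimers, changed by -0.20 ± 0.13 in m9 (edgeR adjusted p = 0.23) and -0.76 ± 0.14 in the wild type (edgeR adjusted p = 0.00022). LHCB5, another minor antenna protein, changed by -0.21 ± 0.11 in m9 (edgeR adjusted p = 0.12) and -0.59 ± 0.11 in the wild type (edgeR adjusted p = 0.00033). For none of these 3 genes was the interaction called (edgeR adjusted p = 0.057 to 0.11).

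The LHCB2 copies, which encode a trimer protein that is phosphorylated in state transitions, also differed. LHCB2.3 had 702, 526 and 634 CPM in m9 ABA and 308, 268 and 307 CPM in m9 control (1.08 ± 0.17, edgeR adjusted p = 0.00017), all ABA libraries being higher. In the wild type it had 554, 621 and 374 CPM with ABA and 361, 338 and 403 CPM in control, which overlapped through WT ABA replicate 3 (0.49 ± 0.16, edgeR adjusted p = 0.016). The wild-type call was lost without WT control replicate 2, WT ABA replicate 1 or WT ABA replicate 2 (edgeR adjusted p up to 0.096). LHCB2.1 had 1505, 1344 and 1466 CPM in m9 ABA and 1177, 1054 and 1230.3 CPM in m9 control (0.32 ± 0.11, edgeR adjusted p = 0.030). LHCB2.1 had 1279, 1385 and 1097 CPM in WT ABA and 1167, 1201 and 1066 CPM in WT control (0.13 ± 0.11, edgeR adjusted p = 0.31). The m9 call was lost without m9 control replicates 1 or 2 or m9 ABA replicates 1 or 3 (edgeR adjusted p up to 0.11). LHCB2.2 changed by 0.15 ± 0.12 in m9 (edgeR adjusted p = 0.32) and -0.27 ± 0.12 in the wild type (edgeR adjusted p = 0.066). LHCB2.1 and LHCB2.2 are 96.6% identical in coding sequence and share 23.5 and 29.5% of their windows of 50 bases with other genes, and their sum changed by 0.25 in m9 (edgeR adjusted p = 0.092) and -0.02 in the wild type (edgeR adjusted p = 0.87). The LHCB4 copies, a minor antenna protein, were not called, with -0.07 to 0.04 in m9 and -0.26 to -0.06 in the wild type.

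PSBS, the sensor of lumen acidity in photoprotective quenching, was lower with ABA in both genotypes. It had 611, 653 and 637 CPM in m9 ABA and 819, 736 and 826 CPM in m9 control (-0.32 ± 0.10, edgeR adjusted p = 0.015). PSBS had 428, 445 and 407 CPM in WT ABA and 757, 701 and 607 CPM in WT control (-0.69 ± 0.10, edgeR adjusted p = 4.0e-05). The groups did not overlap in either genotype, and the interaction was 0.36 ± 0.14 (edgeR adjusted p = 0.091). The m9 call was lost without m9 control replicate 3 or m9 ABA replicate 1 (edgeR adjusted p up to 0.062).

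**Figure D4:**
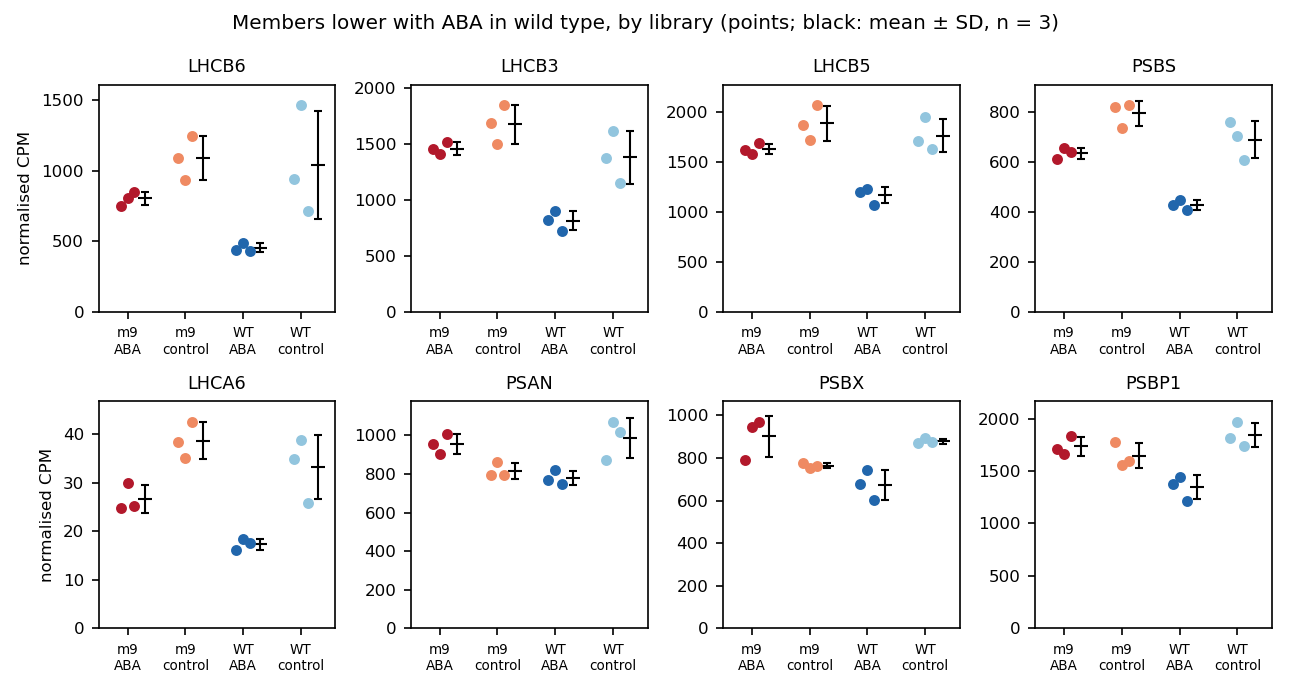
Scaled CPM by library of 8 members that were lower with ABA in the wild type, with the mean and SD (n = 3) in black, for m9 ABA, m9 control, WT ABA and WT control. In each panel the WT ABA libraries lie below the WT control libraries (LHCB6 at 434 to 489.8 CPM, against 718 to 1466 CPM), and for PSAN and PSBX the m9 ABA libraries lie above the m9 control libraries, without a call in m9.

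Of the PSI core genes, 6 were lower with ABA in the wild type (PSAD-1, PSAD-2, PSAF, PSAH-2, PSAK and PSAN) and none of the 12 was lower in m9. The PSAH copies, subunits at the docking site of the mobile antenna, went in opposite directions in the wild type. PSAH-2 (AT1G52230), the copy lowered, had 422, 449 and 429 CPM in m9 ABA and 599, 496 and 489 CPM in m9 control (-0.29 ± 0.12, edgeR adjusted p = 0.052), and 266, 326 and 269 CPM in WT ABA and 548, 546 and 459 CPM in WT control (-0.85 ± 0.12, edgeR adjusted p = 2.3e-05). PSAH-1 (AT3G16140) had 633, 612 and 638 CPM in m9 ABA and 503, 496 and 502 CPM in m9 control (0.33 ± 0.10, edgeR adjusted p = 0.013), and 619, 615 and 582 CPM in WT ABA and 501, 448 and 580.0 CPM in WT control (0.25 ± 0.10, edgeR adjusted p = 0.037). In each case the ABA libraries lay outside the controls, PSAH-1 above and PSAH-2 below. The count of PSAH-1 over that of PSAH-2 was 1.36 to 1.5001 in m9 ABA and 0.838 to 1.03 in m9 control, and 1.88 to 2.33 in WT ABA and 0.820 to 1.26 in WT control. The wild-type call of PSAH-1 turned sign with library totals, and was lost on leaving out WT control replicate 1 or 2, WT ABA replicate 1 or 2, m9 control replicate 3 or m9 ABA replicate 1 or 3 (edgeR adjusted p up to 0.13). The coding sequences are 87.0% identical, and 53.3% of the exon bases of PSAH-1 lie opposite AT3G16130, which had 0 counts in every library.

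PSAE-2 and PSAE-1 encode the stromal subunit at the ferredoxin docking site, and PSAE-2 was higher with ABA in both genotypes. PSAE-2 had 467, 460.2 and 489.6 CPM in m9 ABA and 339, 361 and 353 CPM in m9 control (0.43 ± 0.09, edgeR adjusted p = 0.0018). PSAE-2 had 543, 525 and 516 CPM in WT ABA and 399, 416 and 488 CPM in WT control (0.28 ± 0.09, edgeR adjusted p = 0.014). No group overlapped, but the wild-type call turned sign with library totals and was lost without WT control replicate 1 or WT ABA replicate 1 (edgeR adjusted p up to 0.064). PSAE-1, per kb the most abundant PSI gene, had 1809, 1802 and 1883 CPM in m9 ABA and 1716, 1493 and 1428 CPM in m9 control. PSAE-1 had 1998, 2136 and 1797 CPM in WT ABA and 1739.6, 1694 and 1711 CPM in WT control. Its ABA libraries were the higher ones in both genotypes, with 0.24 ± 0.11 in m9 and 0.21 ± 0.11 in the wild type (-0.099 there with library totals), neither called (edgeR adjusted p = 0.067 in m9 and 0.10 in the wild type). PSAD, the other ferredoxin-side subunit, was lower in the wild type in both copies, by -0.60 ± 0.12 for PSAD-1 (edgeR adjusted p = 0.00047) and -0.35 ± 0.10 for PSAD-2 (edgeR adjusted p = 0.0086), with -0.20 and -0.07 in m9.

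PSAN, a lumenal subunit on the plastocyanin side, was lower with ABA in the wild type, and its response differed between the genotypes. It had 956, 904 and 1008 CPM in m9 ABA and 793, 864 and 794 CPM in m9 control (0.23 ± 0.10, edgeR adjusted p = 0.076). PSAN had 767, 819.8 and 747 CPM in WT ABA and 872, 1071 and 1018 CPM in WT control (-0.34 ± 0.10, edgeR adjusted p = 0.0087). The ABA libraries were above the controls in m9 and below them in the wild type, and the interaction was 0.57 ± 0.14 (edgeR adjusted p = 0.015). PSAF, which binds plastocyanin, changed by -0.15 ± 0.11 in m9 (edgeR adjusted p = 0.28) and -0.33 ± 0.11 in the wild type (edgeR adjusted p = 0.020, lost without WT control replicate 1 or WT ABA replicate 3). PSAK, at the antenna side, changed by 0.17 ± 0.11 in m9 (edgeR adjusted p = 0.22) and -0.28 ± 0.11 in the wild type (edgeR adjusted p = 0.040), and the wild-type call was lost without WT control replicate 2, WT ABA replicate 1 or 3, m9 control replicate 3 or m9 ABA replicate 1 or 2 (edgeR adjusted p up to 0.18). PSAL, next to PSAH, had 1803, 1769 and 1888 CPM in m9 ABA and 1512, 1498 and 1559 CPM in m9 control (0.26 ± 0.10, edgeR adjusted p = 0.037). PSAL had 1734, 1838 and 1669 CPM in WT ABA and 1683, 1664 and 1858 CPM in WT control (0.01 ± 0.10, edgeR adjusted p = 0.93). Its ABA libraries were the higher ones in m9 alone, and the m9 call was lost without WT ABA replicate 1 or any of the 6 m9 libraries (edgeR adjusted p up to 0.12). PSAG and PSAO were not called in either genotype.

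Of the PSII genes, the extrinsic proteins of the oxygen-evolving complex differed between copies. PSBQA (AT4G21280) had 649, 660.1 and 646 CPM in m9 ABA and 899, 835 and 852 CPM in m9 control (-0.40 ± 0.08, edgeR adjusted p = 0.0012), and 408, 425 and 412 CPM in WT ABA and 733, 709 and 686 CPM in WT control (-0.77 ± 0.08, edgeR adjusted p = 2.3e-06). PSBQ2 (AT4G05180) had 819, 767 and 865 CPM in m9 ABA and 826, 794 and 818 CPM in m9 control. PSBQ2 had 819, 832 and 763 CPM in WT ABA and 767, 758 and 792 CPM in WT control, so that its groups overlapped in both genotypes (0.01 ± 0.09 in m9 and 0.06 ± 0.09 in the wild type). The count of PSBQ2 over that of PSBQA was 1.16 to 1.34 in m9 ABA and 0.919 to 0.959 in m9 control, and 1.85 to 2.01 in WT ABA and 1.05 to 1.15 in WT control. PSBP1 had 1713, 1659 and 1829 CPM in m9 ABA and 1779, 1561 and 1597 CPM in m9 control (0.08 ± 0.11, edgeR adjusted p = 0.58), and 1372, 1444 and 1218 CPM in WT ABA and 1817, 1969.9 and 1739 CPM in WT control (-0.45 ± 0.11, edgeR adjusted p = 0.0019). It overlapped in m9 and was lower in every WT ABA library. PSBO1 and PSBO2, the manganese-stabilising proteins, were not called, with 0.04 and 0.21 in m9 and -0.20 and 0.03 in the wild type.

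Of the other PSII subunits, PSBR, which helps to anchor PSBP, was per kb the most abundant and was higher with ABA. PSBR had 4931, 3924 and 4489.9 CPM in m9 ABA and 3385, 3810.2 and 3061 CPM in m9 control (0.38 ± 0.15, edgeR adjusted p = 0.0499). PSBR had 5064, 4888 and 4874 CPM in WT ABA and 3574, 2811 and 4219.8 CPM in WT control (0.48 ± 0.15, edgeR adjusted p = 0.012). Each ABA library was above every control of its genotype, but the m9 value lies at the threshold and kept its call only without WT control replicate 2 or 3, m9 control replicate 2 or m9 ABA replicate 2 (edgeR adjusted p up to 0.17 for the rest). PSBX, a small membrane subunit of the core, had 792, 946 and 971 CPM in m9 ABA and 775, 752 and 764 CPM in m9 control (0.24 ± 0.11, edgeR adjusted p = 0.071), and 678, 743 and 601 CPM in WT ABA and 871, 892 and 875 CPM in WT control (-0.38 ± 0.11, edgeR adjusted p = 0.0056). PSBW, a small core subunit, had 1033, 1002 and 1130.1 CPM in m9 ABA and 862, 847 and 838 CPM in m9 control (0.31 ± 0.09, edgeR adjusted p = 0.013), and 1062, 1015 and 989 CPM in WT ABA and 941, 925 and 1054 CPM in WT control (0.07 ± 0.09, edgeR adjusted p = 0.52). PSBX was lower in the WT ABA libraries and higher in the m9 ABA libraries than in the controls, and PSBW was higher in m9 ABA alone, a call lost without m9 ABA replicate 3 (edgeR adjusted p = 0.066). PSBTN was lower in both genotypes, by -0.41 ± 0.11 in m9 (edgeR adjusted p = 0.0081) and -0.63 ± 0.11 in the wild type (edgeR adjusted p = 0.00022), and PSBY was not called.

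The interaction of genotype and ABA asks whether the responses of m9 and the wild type differed. It was called above 0 for 7 of 43 members (LHCB1.1, LHCB1.2, PSAH-2, PSAN, PSBP1, PSBQA and PSBX) and below 0 for 0, beside 8.62% of all tested genes above and 9.55% below. At an unadjusted p under 0.05 the edgeR test gave 16 members, 15 of them above 0, and DESeq2 gave 1 member below 0 at an adjusted p under 0.05. The share of all genes was counted for neither, so these counts have no background beside them. The estimate was above 0 for 37 of 43 members, with a median of 0.25 against 0.05 for all tested genes. Besides the LHCB1 copies and PSAN, it was 0.62 ± 0.15 for PSBX (edgeR adjusted p = 0.012), 0.53 ± 0.15 for PSBP1 (edgeR adjusted p = 0.027), 0.56 ± 0.16 for PSAH-2 (edgeR adjusted p = 0.029) and 0.37 ± 0.12 for PSBQA (edgeR adjusted p = 0.041). The count was 14 without WT control replicate 3, and 4 without WT ABA replicate 1 or 3, m9 control replicate 2 or 3, or any m9 ABA replicate, since PSBP1, PSAH-2 and PSBQA lay near the threshold. With library totals 16 members were called above 0 and 0 below, beside 14.7% of all genes above and 6.68% below. Scaled so, 5 estimates below 0, none called, turned above it. With near-identical copies summed 5 were called above 0. For the summed copies and for leaving out a library the share of all genes was not counted.

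Set against the wild type directly, m9 differed little in these genes under control conditions and more with ABA. Under control conditions 1 of 43 members, LHCB4.3, was higher in m9 and 0 were lower by the edgeR test, beside 2.58% of all tested genes higher and 2.29% lower. At an unadjusted p under 0.05 the edgeR test gave 9 members, 3 of them higher. At an adjusted p under 0.05 DESeq2 gave 4 lower. For the unadjusted p and for DESeq2 the share of all genes was not counted. LHCB4.3, per kb the least abundant member, had 9.81, 10.3 and 12.3 CPM in m9 control and 5.86, 5.79 and 8.21 CPM in WT control (0.70 ± 0.17, edgeR adjusted p = 0.033), a call lost without WT control replicate 1 or 2, any m9 control replicate or m9 ABA replicate 2 (edgeR adjusted p up to 0.13). With ABA 17 members were higher in m9 than in the wild type and 1, LHCB1.4, was lower (-0.78 ± 0.12, edgeR adjusted p = 0.00018), beside 21.3% of all tested genes higher and 20.7% lower. The largest of these differences were those of LHCB1.2 (0.96 ± 0.18), LHCB1.1 (0.89 ± 0.14), LHCB3 (0.84 ± 0.14) and LHCB6 (0.82 ± 0.20), and none of them reached 2-fold. With DESeq2 size factors 14 members were higher in m9 with ABA and 1 lower, beside 19.7% and 22.9% of all genes. With library totals 22 were higher and 1 lower, beside 30.7% and 13.6%. Leaving out each library gave 12 to 17 higher, and the share of all genes was not counted there. The call of LHCB2.2 was lost in 9 of these 12 refits, and those of LHCB4.2, PSAD-2 and PSAN in 5 each.

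Levels per kb of exon ranged over more than 3 orders of magnitude in WT control seedlings. LHCB1.3 was at 14639.6 ± 1014 CPM per kb (SD, n = 3), LHCB1.5 at 5143 ± 452 and PSBR at 4509 ± 899.6, of which the last pair did not differ beyond the spread. LHCA4 (2493 ± 56.0), LHCA1 (2451 ± 166), PSBO1 (2331 ± 359), LHCB1.1 (2226 ± 409) and PSAE-1 (2149 ± 28.6) followed. Neighbours in this order did not differ beyond their spread, whereas LHCA4 and PSAE-1 did. PSBS was at 381 ± 41.9 CPM per kb. At the low end stood LHCA5 (70.9 ± 1.66), LHCA6 (28.5 ± 5.68) and LHCB4.3 (4.57 ± 0.952), each apart from its neighbour.

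**Figure D5:**
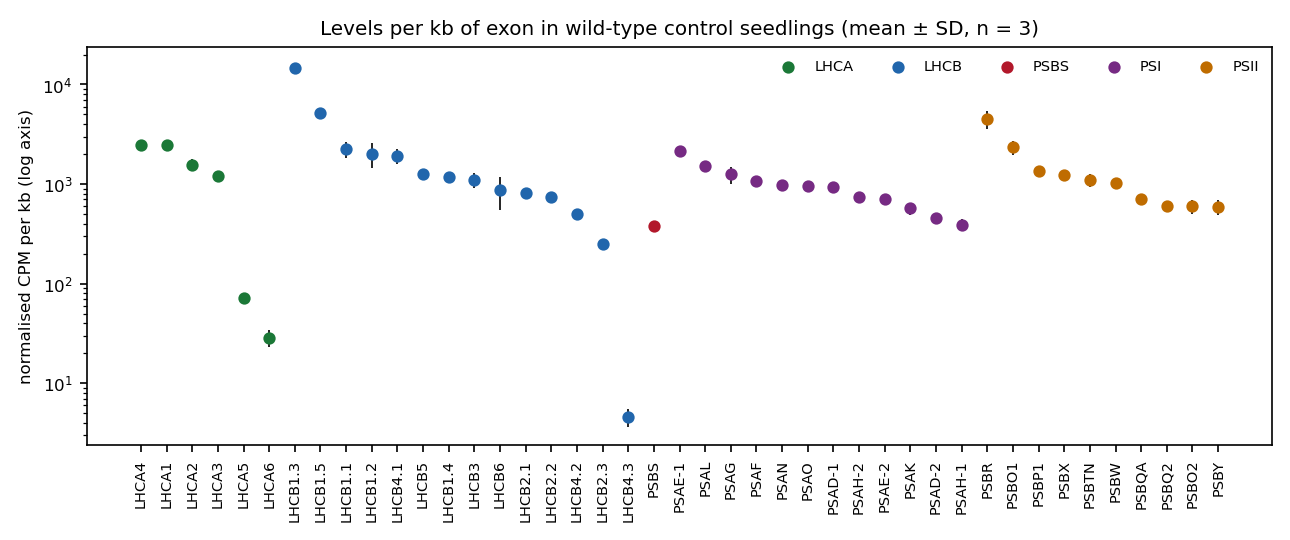
Level of each member in WT control seedlings as scaled CPM per kb of annotated exon (log axis; mean and SD, n = 3), ordered from high to low within each complex. The PSI genes lie between 392 and 2149 CPM per kb and the PSII genes between 590.4 and 4509 CPM per kb, whereas LHCB reaches from 4.57 (LHCB4.3) to 14639.6 CPM per kb (LHCB1.3).

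Of 46 other photosynthesis genes in 4 lists, 16 were lower and 7 higher with ABA in m9, with a median of -0.23, and 29 were lower and 5 higher in the wild type, with a median of -0.44. Beside these and the counts that follow stand 26.1% of all tested genes called lower and 25.9% called higher in m9, and 36.4% lower and 32.2% higher in the wild type. Of 16 carbon fixation genes, 8 were lower and 0 higher with ABA in m9, and 15 were lower and 1 higher in the wild type, with medians of -0.29 in m9 and -0.75 in the wild type. The extremes in the wild type were RBCS1B, a Rubisco small subunit (-1.35 in m9, -2.95 in the wild type), and RPE, a pentose phosphate epimerase (0.10 in m9, 0.27 in the wild type). Of 14 electron transport and ATP synthase genes, 4 were lower and 3 higher in m9, and 9 lower and 1 higher in the wild type. PETE2, a plastocyanin, changed by -0.34 in m9 and -1.49 in the wild type, and PGRL1B, of cyclic electron flow, by 0.88 in m9 and 1.16 in the wild type. Of 8 relatives of the LHC proteins, 1 was lower and 3 higher in m9 and 1 lower and 2 higher in the wild type, from LIL3.1, which binds chlorophyll-synthesis enzymes (-0.43 in m9, -1.06 in the wild type), to LHCB7 (0.76 in m9, 0.69 in the wild type). Of 8 import factors, kinases and regulators, 3 were lower and 1 higher in m9 and 4 lower and 1 higher in the wild type. GLK1, an activator of nuclear photosynthesis genes, changed by -0.99 in m9 and -1.46 in the wild type, and STN7, the kinase of LHCII, by 0.50 in m9 and 0.54 in the wild type.

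Some LHC genes are known to follow the circadian clock. Of 9 clock genes, 5 were higher with ABA in m9 and 4 in the wild type, beside 25.9% of all tested genes in m9 and 32.2% in the wild type, and 0 were lower. Their median was 0.51 in m9 and 0.29 in the wild type. The largest changes were in CCA1 and PRR9. CCA1 changed by 1.14 in m9 and 2.38 in the wild type, and PRR9 by 1.05 in m9 and 1.67 in the wild type. The sampling time of the groups is not given in the sources used here, and the part of the clock genes in the changes of the members was not tested. Of 14 root markers, 5 were higher and 6 lower with ABA in m9, and 3 higher and 2 lower in the wild type. Of all tested genes 25.9% were higher and 26.1% lower in m9, and 32.2% higher and 36.4% lower in the wild type. Together the 14 markers summed to 1690 to 1995 CPM in m9 ABA and 2290 to 2771 CPM in m9 control. In the wild type they summed to 1035 to 1193 CPM with ABA and 1767 to 1856 CPM in control. Under control conditions 2 of 14 were higher in m9 than in the wild type and 0 lower, beside 2.58% and 2.29% of all tested genes. Without PYK10, which held most of the marker counts, the sums were 136 to 155 CPM in m9 ABA and 121 to 131 CPM in m9 control. They were 125 to 131 CPM in WT ABA and 107 to 128 CPM in WT control. PYK10 itself was lower with ABA (-0.54 in m9, -0.81 in the wild type), and the part of root tissue in the results was not tested.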

How the data were processed

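RNA from 12 libraries of whole seedlings was sequenced as paired reads. Per the study's methods and notes the authors trimmed reads with Trimmomatic, mapped them to TAIR10 with HISAT2 and counted them per gene with HTSeq, and deposited 1 table of raw counts, which are whole numbers and not normalized. The notes give versions 0.36, 2.1.0 and 0.9.1 of these tools. The study's methods name other versions of the first and last, another extraction and library kit than the labels, and an age of seedlings in weeks. Counting options and strand are not given in the sources used here. Columns were assigned to samples by their names, which match the descriptions in the labels, and 0 columns were left without a sample.

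Differences were tested by the quasi-likelihood method of edgeR 4.0.16 (R 4.3.3) on all 12 libraries, after filterByExpr and TMM scaling, with 4 group means as coefficients, with Benjamini-Hochberg adjustment over 20617 genes. The standard error was taken as the absolute log2 fold change over the square root of F. Calls used an adjusted p under 0.05, and separately with the 3-fold minimum of the study's methods, and no fold minimum for the interaction. The biological coefficient of variation was 11.9%, so replicates rather than depth limit precision for all but the lowest genes. The procedure was tested on simulated data. The members and gene lists were chosen with earlier results of these data known. Values by library are given for the members with the lowest and highest change and the highest level in each complex, those called higher with ABA, those with a called interaction, and copies; other members named were chosen after their values were seen. Levels per kb used exon lengths of the TAIR10.1 annotation, to which 32835 of the 33602 genes and all 43 members matched. Alternatives were DESeq2 1.42.0, its size factors, library totals, a likelihood ratio test, other filters, nuclear genes only, a replicate block, the compared groups only, summed copies and leaving out each library.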

Additional observations from a re-analysis of the deposited data

Results flagged for a closer look

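The ABA response differed between m9 and the wild type, by the interaction term of the edgeR model, for 7 members: LHCB1.1 (0.92), LHCB1.2 (1.09), PSAH-2 (0.56), PSAN (0.57), PSBP1 (0.53), PSBQA (0.37) and PSBX (0.62), given as m9 minus wild type on the log2 scale, with edgeR adjusted p between 0.0054 and 0.041. Of 46 other photosynthesis genes the same test was called above 0 for 15 and below 0 for 0. Of all tested genes 8.62% were called above 0 and 9.55% below. Carbon fixation held 9 of these calls, of its 16 genes. Among those called above 0 were PETE2 (1.16), RBCS1B (1.60), LIL3.1 (0.64), CAO, listed with the LHC import factors (0.66), and HY5, a light-signalling factor (0.67). The interaction was called below 0 for the clock genes CCA1 (-1.24) and ELF4 (-0.68) and for the ABA marker RD29B (-2.17).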

How the results depend on the processing

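With 3 libraries a group the number of calls depended on the scaling. Scaled by library totals, 31 members were lower and 1 higher with ABA in the wild type, 11 lower and 4 higher in m9, and 16 had an interaction called above 0. Of all genes, 51.0% were then lower and 20.6% higher in the wild type, and 37.5% and 17.7% in m9. The interaction was then called above 0 for 14.7% of all genes and below 0 for 6.68%. The members' medians were then -0.10 in m9 and -0.39 in the wild type, and 10 estimates turned below 0 in each genotype. Those called under either scaling were all in the wild type: LHCA5 (-0.049), PSAE-2 (-0.019), PSAH-1 (-0.054), PSAL (-0.29), PSBO2 (-0.28), PSBQ2 (-0.25) and PSBW (-0.23). Requiring a 2-fold change left 0 lower and 2 higher members in m9, 2 lower and 1 higher in the wild type, and 0 in m9 against the wild type with or without ABA. Of 20617 tested genes it left 1365 lower and 1565 higher in m9, and 3344 lower and 2643 higher in the wild type. For m9 against the wild type it left 929 lower and 1352 higher with ABA, and 96 lower and 174 higher without. Requiring a 3-fold change left 0 members in each. DESeq2 called 1 interaction below 0, 2 members lower in m9 than in the wild type with ABA, and 4 lower and 2 higher under control conditions, as did the likelihood ratio test. The share of all genes was not counted for these tests. With only the compared groups in the fit, 0 were higher in m9 control, and the share of all genes was not counted there either. The causes of these differences were not tested.

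Leaving out each library in turn gave 3 to 6 lower and 6 to 12 higher members with ABA in m9. In the wild type it gave 15 to 19 lower and 4 to 7 higher. The interaction was called above 0 for 4 to 14 members and below 0 for 0 to 1. Set against the wild type, m9 had 0 to 1 higher members under control conditions, and 12 to 17 higher and 1 lower with ABA. The replicate numbers mark no shared origin in the labels, and deviations of libraries with the same number correlated between -0.486 and 0.383. With the replicate block, 4 members were lower and 8 higher in m9, 16 lower and 7 higher in the wild type, and 6 interactions were above 0. Depth limits only the members with the fewest counts, such as LHCB4.3. With near-identical copies summed, 4 were lower and 8 higher in m9 and 15 lower and 6 higher in the wild type. That left 5 interactions above 0, that of LHCB1.1 to LHCB1.3 not among them. For leaving out a library, the replicate block and the summed copies the share of all genes was not counted, so these counts have no background beside them.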
